A study of Mus musculus with 16 samples.

Results

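The genes described here are the CNNM family of magnesium transporters, the PRL phosphatases that bind them, and a magnesium channel and a magnesium exchanger, in cultured explants of mouse epicardium treated with blebbistatin. They are Cnnm2, Cnnm3, Cnnm4, Ptp4a1, Ptp4a2, Ptp4a3, Trpm7 and Slc41a1. The members were chosen by gene name among the rows present in the deposited count table, and all 8 of 8 names were found among its 15805 genes. The family was taken up because Cnnm4 was known to differ between these same groups, so the difference of Cnnm4 was selected on the measured values and is given as a description with no test. The other 7 genes were named for their relation to Cnnm4, though earlier results of these data were known when they were chosen. Each member exceeded 1 CPM, the count scaled to a common library size, in 16 of 16 libraries. The lowest level of any member before scaling between libraries was 2.52 CPM, for Cnnm2, so none lay at the edge of the table.

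RNA-seq libraries of 8 explants cultured with blebbistatin were compared with those of 8 explants cultured without it. All 16 were primary explants from C57BL6 mice, grown on a collagen gel. Blebbistatin inhibits the motor activity of nonmuscle myosin II. The labels write its dose as 20 but disagree on the unit (mM or mm), which leaves the concentration unknown, and they do not say whether controls received the solvent. The labels do not say whether explants came from separate animals or litters, so p-values measure the spread between explants.

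CNNM proteins sit in membranes, mostly the basolateral plasma membrane of epithelia, and are linked to the extrusion of magnesium from cells. PRL phosphatases are small, membrane-anchored enzymes encoded by the Ptp4a genes. They bind the cytoplasmic domains of CNNM proteins and in doing so raise the magnesium content of cells, and cells short of magnesium make more PRL protein. TRPM7 is a channel for magnesium and other divalent cations that carries a kinase domain of its own, and this kinase phosphorylates the heavy chains of nonmuscle myosin II, the motor that blebbistatin inhibits.

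Cnnm4 and Cnnm3 are neighbours on the plus strand of mouse chromosome 1. In the GENCODE M21 annotation of build GRCm38, Cnnm4 (ENSMUSG00000037408) spans 36471620 to 36508764 and Cnnm3 (ENSMUSG00000001138) spans 36511867 to 36528237, with 3102 bases between them. Their promoters are shown because the neighbours lie side by side and Cnnm4 alone of the pair was lower in every blebbistatin library. The sequences are those of RefSeq on GRCm38.p6, each from 250 bases before the start of the gene to 50 bases after it, on the plus strand. For Cnnm4 the RefSeq start lies upstream of the GENCODE start given above, and its window and motif positions are counted from the RefSeq start. That of Cnnm4 is chr1:36471347-36471646 and that of Cnnm3 is chr1:36511617-36511916. Capitals mark TGACGTCA, the full cAMP response element, which reads the same on both strands.
Cnnm4: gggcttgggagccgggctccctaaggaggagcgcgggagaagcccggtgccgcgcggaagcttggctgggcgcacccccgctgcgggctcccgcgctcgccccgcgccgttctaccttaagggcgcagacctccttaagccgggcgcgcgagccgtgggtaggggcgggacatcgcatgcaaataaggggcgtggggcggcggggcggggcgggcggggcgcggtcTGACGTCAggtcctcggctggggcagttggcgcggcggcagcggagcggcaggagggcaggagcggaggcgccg
Cnnm3: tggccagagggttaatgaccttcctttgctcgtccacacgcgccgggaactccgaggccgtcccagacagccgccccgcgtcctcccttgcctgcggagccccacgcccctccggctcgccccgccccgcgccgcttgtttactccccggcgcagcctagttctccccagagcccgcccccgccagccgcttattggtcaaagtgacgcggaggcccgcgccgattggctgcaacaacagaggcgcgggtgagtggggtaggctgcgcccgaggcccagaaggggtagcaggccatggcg

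Promoter sequences matched 7 of the 8 members, and Ptp4a3 had no entry. The full cAMP response element was found in the Cnnm4 promoter, where it begins at position −24 from the start, and in 0 of the other 6 member promoters. Of 32851 mouse promoters of the same length, 1.79% held it. The TEAD motif GGAATG, searched on both strands, was in 0 copies in the Cnnm4 and Cnnm3 promoters and in 1 copy in that of Cnnm2, and 14.7% of all promoters held it. Neither the CArG box of serum response factor, held by 1.63% of all promoters, nor the AP-1 motif TGANTCA, held by 7.81%, was in any of the 7. The Sp1 motif GGGCGG, on either strand, was in 5 copies in the Cnnm4 promoter and 3 copies in the Cnnm3 promoter, and 35.7% of all promoters held it. G and C made up 76.3% of the Cnnm4 window and 70.7% of the Cnnm3 window. The motifs were picked after the results were known and a match is a description of the sequence alone.

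The other 6 members lie elsewhere in build GRCm38. Slc41a1 (ENSMUSG00000013275) spans 131827493 to 131848865 on the plus strand of chromosome 1 and Ptp4a1 (ENSMUSG00000026064) spans 30940302 to 30949309 on its minus strand. Cnnm2 (ENSMUSG00000064105) is on chromosome 19 from 46761596 to 46880192, Ptp4a2 (ENSMUSG00000028788) on chromosome 4 from 129811219 to 129850003 and Ptp4a3 (ENSMUSG00000059895) on chromosome 15 from 73723145 to 73758766, all on the plus strand. Trpm7 (ENSMUSG00000027365) is on the minus strand of chromosome 2 from 126791565 to 126876230.

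Libraries held 20176386 to 89620195 counts with blebbistatin and 27065611 to 60321622 without. All 12 markers of epicardium searched for were in the table, among them Wt1 at a mean unscaled level of 65.5 CPM in blebbistatin explants and 74.9 CPM in control explants. Of the 12, 11 had a negative log2 fold change (median −0.33, against 0.04 for all genes). In the edgeR fit 4 of the 12 were at an unadjusted p under 0.05, beside 12.2% of all genes, and 0 passed after adjustment. DESeq2 called 2 of the 12 lower, beside 2.7% of all genes called in either direction. Those of low adjusted p by edgeR were Krt19, a keratin of mesothelium, at 11.9 CPM with blebbistatin and 30.6 CPM without it (log2 fold change −1.33, adjusted p = 0.0593) and Tbx18, a transcription factor of epicardium, at 31.5 CPM with blebbistatin and 49.8 CPM without it (−0.68, adjusted p = 0.0794). Msln, for mesothelin, stood at 268 CPM with blebbistatin and 464 CPM without it (−0.78, edgeR adjusted p = 0.22). The part of these markers in the differences of the members was not tested. Their summed level was 2039 to 5436 CPM in blebbistatin explants and 3076 to 6859 CPM in control explants (exact permutation test, adjusted p = 0.158 over 7 measures of the libraries). Macrophage markers summed to 252 to 3603 CPM in blebbistatin explants and 304 to 4482 CPM in control explants (exact permutation test, adjusted p = 0.811). Lyz2 made up most of this, at a mean of 714 CPM with blebbistatin and 988 CPM without it (log2 fold change −0.42). Of 11 macrophage markers tested, 10 had a positive log2 fold change (median 0.33). At an unadjusted p under 0.05 by edgeR there were 0, beside 12.2% of all genes. Endothelial markers summed to 16.1 to 52.4 CPM with blebbistatin and 30 to 63.8 CPM without it (exact permutation test, adjusted p = 0.314). Only 4 of the 9 were in the table, and Tek, at 27.8 CPM with blebbistatin and 34.4 CPM without it, made up most of the sum. The mitochondrial share of the counts was 16.8 to 25.5% with blebbistatin and 13.8 to 18.9% in controls (exact permutation test, adjusted p = 0.0228). Of 11 cardiomyocyte markers 7 were in the table, and they summed to 651 to 1217 CPM in blebbistatin explants and 416 to 1023 CPM in control explants (exact permutation test, adjusted p = 0.0315). Most of that sum was Tnnt2, at a mean of 859 CPM in blebbistatin explants and 549 CPM in control explants, which did not pass edgeR (log2 fold change 0.66, adjusted p = 0.124). The next most abundant, Myl7, stood at 77.3 CPM with blebbistatin and 92.5 CPM without it (log2 fold change −0.26, edgeR adjusted p = 0.748). Ttn, at 48.9 CPM with blebbistatin and 15.9 CPM without it, was the 1 of 5 tested that passed edgeR (log2 fold change 1.64, edgeR adjusted p = 0.0464), beside 0.606% of all genes. Ryr2 stood at 5.68 CPM with blebbistatin and 1.26 CPM without it (log2 fold change 2.12, edgeR adjusted p = 0.124). Of these 5, 4 had a positive log2 fold change (median 0.66) and 3 were at an unadjusted p under 0.05 by edgeR, beside 12.2% of all genes. DESeq2 called 3 of the 5 higher, beside 2.7% of all genes in either direction. Myh6 and Actc1 each had no count in 4 of 16 libraries, and Myh7, Tnni3, Nppa and Pln were not among the deposited genes.

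Cnnm4, the basolateral magnesium transporter of this family, was lower with blebbistatin in every library. Its scaled level was 11.3 to 21.4 CPM (median 12.4) in the 8 blebbistatin libraries, against 26.5 to 66.7 CPM (median 27.7) in the 8 controls. The highest blebbistatin value thus lay below the lowest control value. The share of all genes whose groups lie apart in this way was not computed, so the separation is only a description of Cnnm4. The means were 14.0 ± 3.57 CPM in blebbistatin explants and 37.5 ± 15.2 CPM in control explants (mean ± SD of 8 explants a group). On the log2 scale the difference was −1.42 (SE 0.22, 95% interval −1.89 to −0.96), or 2.69-fold lower. Cnnm4 was chosen for this difference, so the interval describes its size and is not a test. The counts behind these values were 268 to 987 per blebbistatin library and 807 to 2776 per control library. In these explants of mixed cells, fewer cells of a type that expresses a gene and less RNA of that gene per cell cannot be told apart.

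Within each group the Cnnm4 values were not evenly spread. In controls, 5 libraries lay between 26.5 and 27.9 CPM, and controls 1, 7 and 8 stood above them at 46.4, 50.5 and 66.7 CPM. With blebbistatin, 6 libraries lay between 11.3 and 12.8 CPM, and replicates 4 and 5 stood at 21.4 and 17.6 CPM. The labels give no batch or litter that sets these libraries apart.

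**Figure D1:**
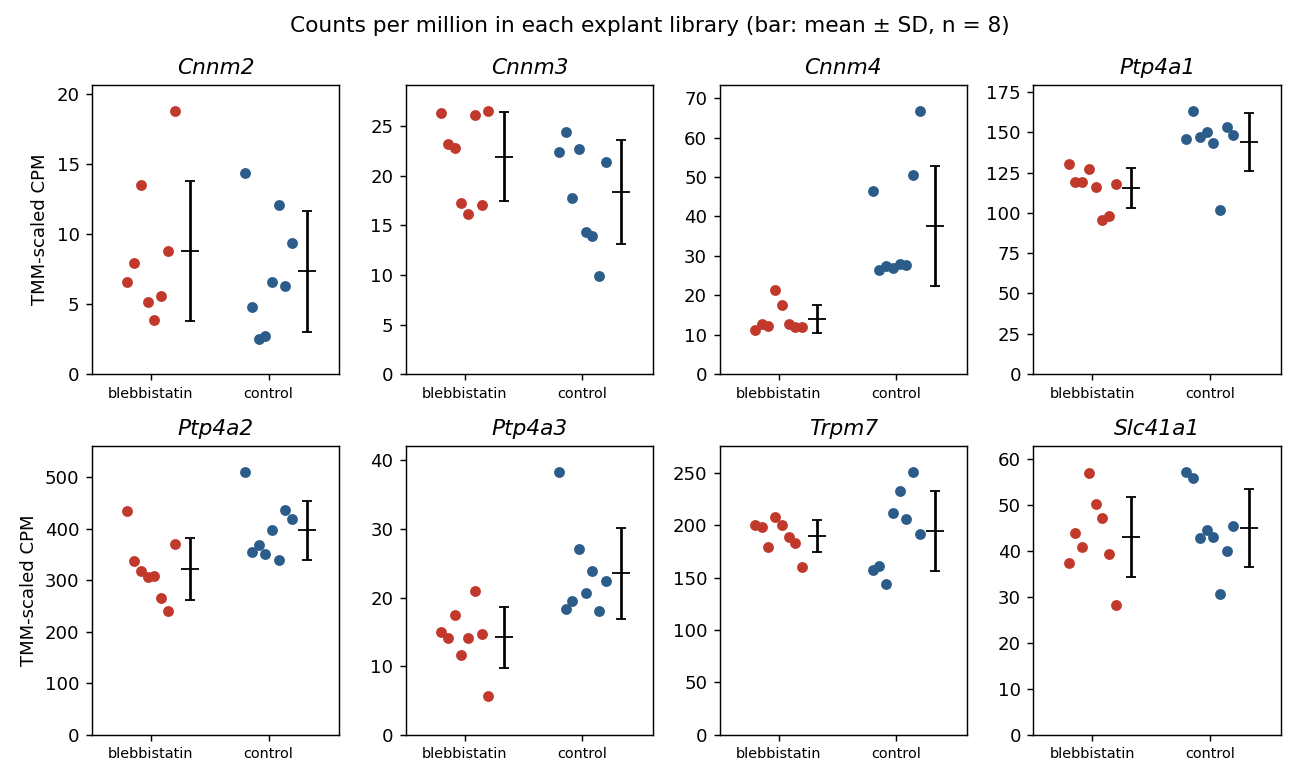
TMM-scaled CPM (vertical axes, from 0) of each of the 8 genes in the 8 blebbistatin libraries (red, left) and the 8 control libraries (blue, right), 1 point per explant in order of replicate number, with mean ± SD. Cnnm4 lies at 11.3 to 21.4 CPM in blebbistatin explants and 26.5 to 66.7 CPM in control explants. It was chosen for its difference between these same groups.

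Of the 7 members other than Cnnm4, 0 passed an adjusted p of 0.05 over all genes by edgeR, where 0.606% of the 15675 genes tested passed. By limma voom 0 of the 7 passed (background 0.721%), and DESeq2 called 1 of them, Ptp4a3 (background 2.7%). DESeq2 gave no adjusted p for 2432 of the 15675 genes, which count as not called in its background share. At an unadjusted p under 0.05 by edgeR there were 3 of these 7, the PRL genes Ptp4a1, Ptp4a2 and Ptp4a3, all lower with blebbistatin, beside 12.2% of all genes.

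Cnnm3, the neighbour and paralog of Cnnm4, did not pass the test. It stood at 16.1 to 26.5 CPM (median 23.0) with blebbistatin and 9.84 to 24.4 CPM (median 19.6) in controls. The groups overlapped, and 5 of 8 blebbistatin libraries lay above the control median. The log2 fold change was 0.26 (SE 0.19, 95% interval −0.15 to 0.66, edgeR adjusted p = 0.648). The ratio of Cnnm4 to Cnnm3 per length of exon was 0.573 to 1.65 in blebbistatin libraries and 1.45 to 6.82 in controls, given as a description because Cnnm4 enters it. The exons of Cnnm4 overlap those of Gm47280 by 141 bases and those of Cnnm3 overlap Gm38033 by 269 bases, so a few reads may be shared with these genes.

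Cnnm2, which is known for inherited low magnesium in human patients, was the least abundant and most variable member. It was at 3.86 to 18.8 CPM (median 7.28) with blebbistatin and 2.48 to 14.4 CPM (median 6.43) in controls. Its SD was 57.0% of the mean with blebbistatin and 58.6% in controls, and the groups overlapped over most of their range. The log2 fold change was 0.26 with a 95% interval of −0.54 to 1.07 (SE 0.39, edgeR adjusted p = 0.825). Cnnm1, the remaining paralog, is in the table but is not among the 8 genes. It stood at 6.12 ± 4.42 CPM in blebbistatin explants and 4.52 ± 2.97 CPM in control explants (log2 fold change 0.44, 95% interval −0.53 to 1.40, edgeR adjusted p = 0.757).

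The 3 PRL genes, which encode the phosphatases that bind CNNM proteins, were each at a lower mean level with blebbistatin, and 0 of 3 passed edgeR. Ptp4a1, for PRL-1, was at 95.8 to 130 CPM (median 118) with blebbistatin and 102 to 163 CPM (median 148) in controls. All 8 blebbistatin libraries lay below the control median, and control 6 at 102 CPM was the only control within the blebbistatin range. Its log2 fold change was −0.32 (SE 0.10, 95% interval −0.54 to −0.11, edgeR adjusted p = 0.167). It passed without control 6 (log2 fold change −0.38, edgeR adjusted p = 0.0416), and the adjusted p ran from 0.0416 to 0.667 over 29 alternatives. GENCODE M21 holds a further gene named Ptp4a1 (ENSMUSG00000117310) on the same strand, which covers 3923 of the 5541 exon bases of Ptp4a1 and is not among the deposited rows. Of the 50-base words of Ptp4a1 transcripts 70.0% occur in that gene or another, so the count of Ptp4a1 is uncertain.

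Ptp4a2, for PRL-2, was the most abundant member. It was at 241 to 434 CPM (median 312) with blebbistatin and 340 to 510 CPM (median 384) in controls. In 6 of 8 blebbistatin libraries it lay below every control, and blebbistatin 1 and 8 reached into the control range. Blebbistatin minus control gave a log2 fold change of −0.30 (SE 0.12, 95% interval −0.56 to −0.05, edgeR adjusted p = 0.301). Controls 1, 7 and 8, which were highest for Cnnm4, were also the 3 highest controls for Ptp4a2, at 510, 437 and 418 CPM. With blebbistatin, replicates 4 and 5, highest for Cnnm4, stood at 306 and 308 CPM for Ptp4a2, below the group median of 312 CPM. The relation of Cnnm4 to Ptp4a2 passed in neither group, so nothing is read from these libraries. Its adjusted p was 0.311 in controls and 0.857 with blebbistatin (Pearson, exact permutation).

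Ptp4a3, for PRL-3, which is known for its high level in metastatic tumours, was far less abundant. It was at 5.62 to 20.9 CPM (median 14.4) with blebbistatin and 18.0 to 38.3 CPM (median 21.5) in controls. In 7 of 8 blebbistatin libraries it lay below every control, and blebbistatin 6 at 20.9 CPM was the exception. The means were 14.2 ± 4.42 CPM with blebbistatin and 23.5 ± 6.70 CPM without it (mean ± SD of 8 explants a group). The log2 fold change was −0.73 (SE 0.22, 95% interval −1.20 to −0.26, edgeR adjusted p = 0.15), and DESeq2 gave −0.74 with an adjusted p of 0.0438. The adjusted p ran from 0.0438 to 0.639 over 29 alternatives.

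Trpm7, the channel with the myosin heavy chain kinase, did not pass the test. It was at 160 to 208 CPM (median 193) with blebbistatin and 144 to 251 CPM (median 199) in controls, so that every blebbistatin library lay within the control range. Its log2 fold change was −0.04 (SE 0.12, 95% interval −0.28 to 0.20, edgeR adjusted p = 0.922). The spread was narrower with blebbistatin, with an SD of 8.10% of the mean, against 19.7% in controls, a difference that was not tested.

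Slc41a1, a magnesium transporter linked to sodium-dependent export, did not pass either. It was at 28.2 to 56.8 CPM (median 42.3) with blebbistatin and 30.6 to 57.1 CPM (median 43.7) in controls, with 4 of 8 blebbistatin libraries on each side of the control median. The log2 fold change was −0.07 (SE 0.15, 95% interval −0.38 to 0.25, edgeR adjusted p = 0.892).

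**Figure D2:**
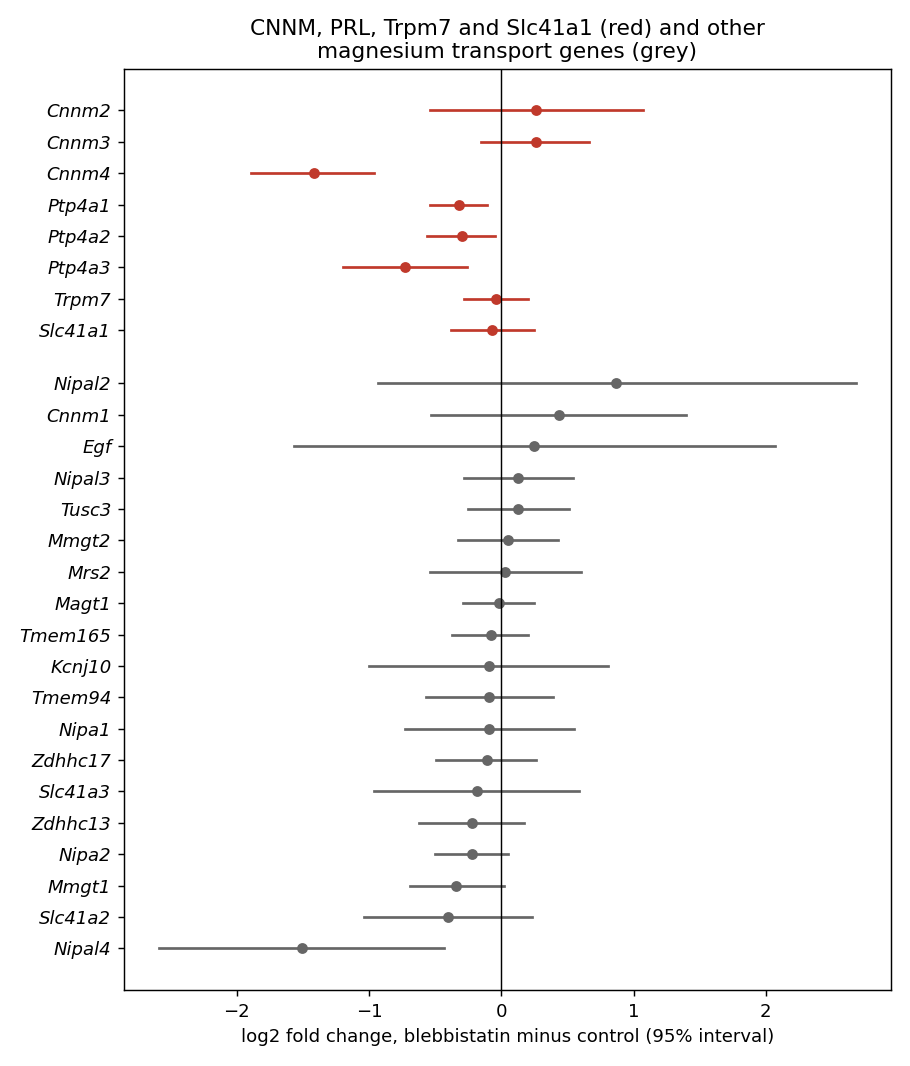
Log2 fold change, blebbistatin minus control, with its 95% interval (horizontal axis) from the edgeR fit over all genes, for the 8 genes (red) and the 19 tested genes of magnesium transport outside them (grey). Cnnm4 lies at −1.42, Cnnm3 and Cnnm2 at 0.26 each, and the grey genes have a median of −0.09.

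Levels of different genes were compared per kilobase of merged exons, as RPKM on the scaled library totals. Over all 16 libraries the order was Ptp4a2 (mean 82.2 RPKM), Ptp4a1 (23.4), Trpm7 (17.0), Slc41a1 (8.93), Cnnm4 (5.33), Cnnm3 (3.13), Ptp4a3 (2.02) and Cnnm2 (1.56). Each of the first 3 stood above the next in 16 of 16 libraries. Slc41a1 stood above Cnnm4 in 8 of 8 blebbistatin libraries and 6 of 8 controls. Cnnm4 stood above Cnnm3 in 2 of 8 blebbistatin libraries and in 8 of 8 controls. Cnnm3 stood above Ptp4a3 in 8 of 8 blebbistatin libraries and 5 of 8 controls, and Ptp4a3 above Cnnm2 in 4 of 8 blebbistatin libraries and 8 of 8 controls, so the order from Slc41a1 down was not the same in every library.

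Within the CNNM genes the make-up of the RNA differed between the groups. Cnnm4 made up 36.9 ± 11.0% of the summed RPKM of Cnnm2, Cnnm3 and Cnnm4 with blebbistatin and 63.2 ± 8.68% in controls (SD, n = 8 each). Cnnm3 made up 42.7 ± 7.27% with blebbistatin and 25.2 ± 9.09% in controls, and Cnnm2 20.5 ± 8.92% with blebbistatin and 11.6 ± 6.10% in controls. The sum was 8.00 ± 1.08 RPKM with blebbistatin and 12 ± 3.66 RPKM in controls. These shares leave out Cnnm1, rest on the difference of Cnnm4 and are a description. The differences between the groups in the shares of the PRL genes were smaller than 1 SD. Ptp4a2 made up 76.5 ± 2.16% of the summed PRL RPKM with blebbistatin and 76.0 ± 2.62% in controls, Ptp4a1 21.9 ± 1.83% with blebbistatin and 21.9 ± 2.80% in controls, and Ptp4a3 1.65 ± 0.66% with blebbistatin and 2.11 ± 0.485% in controls. The summed PRL level was 95.9 ± 15.4 RPKM with blebbistatin and 119 ± 14.7 RPKM in controls.

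**Figure D3:**
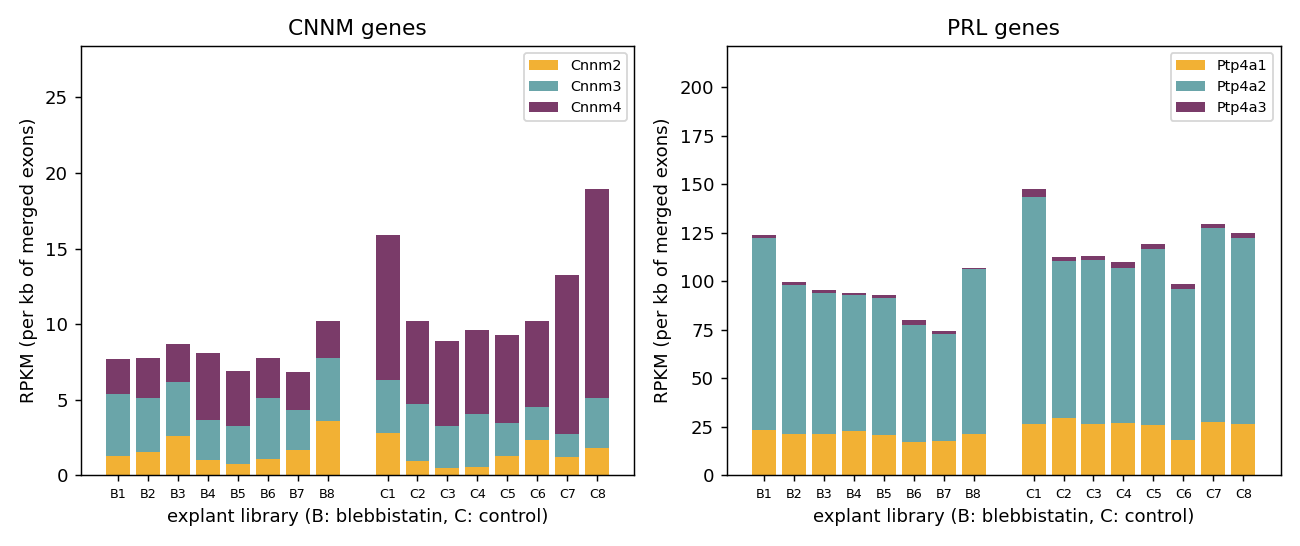
Summed level of the CNNM genes (left) and the PRL genes (right) in each library, in RPKM on the vertical axis, stacked by gene, with blebbistatin libraries (B) left of controls (C). The share of Cnnm4 in the CNNM sum is 24.1 to 54.5% with blebbistatin and 53.8 to 79.2% in controls, while Ptp4a2 makes up most of the PRL sum in every library.

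The mitochondrial share and the cardiomyocyte markers, which differed between the groups, were set beside the difference of Cnnm4. With the summed level of macrophage markers in the model its log2 fold change was −1.41, and with mitochondrial genes left out of the library totals it was −1.42. With the mitochondrial share of the counts as a covariate it was −1.44, and with the summed cardiomyocyte markers −1.20. In these fits edgeR called 1 and 0 genes in all, and Cnnm4 was not among them. Both covariates were added after the data were seen and move with the groups, so their part in the difference cannot be told apart from that of blebbistatin.

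Other genes of magnesium transport gave no call. Of 25 listed, 19 were tested, and 0 passed by edgeR, DESeq2 or limma voom. Over all genes 0.606% passed by edgeR, 2.7% by DESeq2 and 0.721% by limma voom. DESeq2 gave no adjusted p for Nipal2 and Egf. Of the 19, 1 was at an unadjusted p under 0.05 by edgeR, beside 12.2% of all genes. The median log2 fold change of the 19 was −0.09, beside 0.04 for all tested genes, with 7 positive and 12 negative. The gene of smallest p was Nipal4, of the NIPA-like magnesium transporters, at 1.02 ± 0.66 CPM in blebbistatin explants and 2.92 ± 2.12 CPM in control explants (log2 fold change −1.51, edgeR adjusted p = 0.21). Mmgt1, for a membrane magnesium transporter that is also a subunit of the ER membrane complex, had a log2 fold change of −0.34 (edgeR adjusted p = 0.438), Nipa2 one of −0.22 (adjusted p = 0.52) and Slc41a2, a paralog of Slc41a1, one of −0.40 (adjusted p = 0.648). Trpm6, the closest relative of Trpm7, was among the 6 genes of the list not in the table.

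Of 13 genes listed for reported binding to CNNM or PRL proteins or for being acted on by PRLs, 11 were tested. By any of the 3 tools 0 passed. At an unadjusted p under 0.05 by edgeR there were 2 of the 11, beside 12.2% of all genes. The median log2 fold change of the 11 was 0.10. Krt8, a keratin of simple epithelia, stood at 10.3 ± 7.57 CPM in blebbistatin explants and 25.2 ± 9.91 CPM in control explants, with 8 of 8 blebbistatin libraries below the control median (log2 fold change −1.28, edgeR adjusted p = 0.285). Atf7, a transcription factor, stood at 172 ± 15.1 CPM in blebbistatin explants and 140 ± 26.5 CPM in control explants (0.29, edgeR adjusted p = 0.282). It was listed by its symbol alone. Whether Atf7 is the gene of the reported binding was not checked, so its place among the 11 is uncertain. Iqcb1, for a ciliary protein, had a log2 fold change of 0.46 (edgeR adjusted p = 0.5) and Stat3, a transcription factor, one of 0.14 (edgeR adjusted p = 0.658).

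The kinase of TRPM7 belongs to the alpha-kinases. Of 12 listed alpha-kinases and substrates of the TRPM7 kinase and its relatives, 11 were tested. By edgeR and by limma voom 0 passed, with 1 at an unadjusted p under 0.05 by edgeR, beside 12.2% of all genes. DESeq2 called 1, Myh9, lower, beside 2.7% of all genes in either direction, and gave no adjusted p for Alpk3. The median log2 fold change was −0.20 and 9 of 11 were negative. Myh9, for the heavy chain of myosin IIA, stood at 390 ± 112 CPM in blebbistatin explants and 571 ± 80.5 CPM in control explants (log2 fold change −0.55, edgeR adjusted p = 0.101). Anxa1, for annexin A1, had a log2 fold change of −0.23 (edgeR adjusted p = 0.446), Smad2, a mediator of TGF-beta signals, one of −0.23 (edgeR adjusted p = 0.477) and Myh10, which encodes the myosin IIB heavy chain, one of −0.20 (edgeR adjusted p = 0.516).

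Of 7 other TRPM channel genes, 4 were tested and 0 passed by any tool. At an unadjusted p under 0.05 by edgeR there was 1, beside 12.2% of all genes. The median log2 fold change of the 4 was 0.09. DESeq2 gave no adjusted p for Trpm1 and Trpm3. Trpm3, a calcium-permeable channel, was very low, at 0.189 ± 0.209 CPM in blebbistatin explants and 1.3 ± 1.01 CPM in control explants (log2 fold change −2.71, SE 0.84, edgeR adjusted p = 0.157). Trpm4, a channel for monovalent cations, stood at 4.61 ± 1.42 CPM in blebbistatin explants and 4.37 ± 1.96 CPM in control explants (0.08, edgeR adjusted p = 0.947), Trpm2 had a log2 fold change of 0.10 (edgeR adjusted p = 0.904) and Trpm1 one of 0.74 (edgeR adjusted p = 0.501).

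PRLs belong to the large group of phosphatases related to the viral enzyme VH1. Of 20 listed relatives outside the PRLs 18 were tested, and 0 passed by edgeR or limma voom. At an unadjusted p under 0.05 by edgeR there were 2, beside 12.2% of all genes. The median log2 fold change of the 18 was 0.05. DESeq2 called 1 of the 18 higher, beside 2.7% of all genes in either direction. That gene, Ssh2 (DESeq2 adjusted p = 0.00956), encodes a slingshot phosphatase that activates the actin-severing protein cofilin. Ssh2 stood at 136 ± 39.0 CPM in blebbistatin explants and 86.3 ± 13.8 CPM in control explants, above the control median in 8 of 8 blebbistatin libraries (log2 fold change 0.66, SE 0.16, edgeR adjusted p = 0.0593). Its paralog Ssh3 had a log2 fold change of 0.84 (edgeR adjusted p = 0.327), and the myotubularins Mtmr1 and Mtmr2 had 0.25 (edgeR adjusted p = 0.466) and −0.22 (edgeR adjusted p = 0.499).

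Transporters of zinc, iron, calcium and manganese were listed for comparison. Of 25, 24 were tested and 0 passed by edgeR or limma voom. At an unadjusted p under 0.05 by edgeR there were 5 of the 24, beside 12.2% of all genes. The median log2 fold change of the 24 was −0.06. DESeq2 called 1 higher and 2 lower, beside 2.7% of all genes in either direction. Atp2b4, a calcium pump of the plasma membrane, stood at 41.6 ± 9.95 CPM in blebbistatin explants and 69.1 ± 20.5 CPM in control explants (log2 fold change −0.73, edgeR adjusted p = 0.0653, DESeq2 adjusted p = 0.00803). Slc40a1, for the iron exporter ferroportin, stood at 33.8 ± 16.5 CPM in blebbistatin explants and 18.1 ± 4.91 CPM in control explants (0.90, edgeR adjusted p = 0.123, DESeq2 adjusted p = 0.0261). Slc30a4, a zinc exporter, stood at 47.8 ± 13.3 CPM in blebbistatin explants and 69.6 ± 10.8 CPM in control explants (−0.54, edgeR adjusted p = 0.124, DESeq2 adjusted p = 0.0436). Slc39a6, a zinc importer, had a log2 fold change of −0.63 (edgeR adjusted p = 0.27).

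Among 9648 protein-coding genes of at least 5 CPM on average, those whose log2 CPM followed Cnnm4 most closely, with each group's mean subtracted, were Cdr2l (Pearson r 0.77 over 16 libraries), Blcap (0.73), Srf (0.72), Homer3 (0.71) and Meis2 (0.71). The median r over all these genes was 0.01. Within the groups, r was higher in controls than with blebbistatin for each of these genes. It was 0.88 in controls and 0.37 with blebbistatin for Cdr2l, and 0.91 and 0.26 for Blcap. In the same order it was 0.80 and 0.48 for Srf, 0.82 and 0.37 for Homer3 and 0.76 and 0.67 for Meis2. The 5 genes were chosen by r over both groups, and Cnnm4 spread more in controls. Its SD was 40.7% of the mean in controls and 25.5% with blebbistatin. A higher r in controls may thus follow from the choice, and nothing is read from it. The part of controls 1, 7 and 8, which were high for Cnnm4, was not tested, and the values are a description. Srf, for serum response factor, stood at 41.4 ± 8.62 CPM in blebbistatin explants and 42.5 ± 14.5 CPM in control explants (log2 fold change −0.03), and Meis2, a homeobox gene, at 110 ± 12.6 CPM in blebbistatin explants and 116 ± 13.8 CPM in control explants (−0.07).

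A relation of Cnnm4 to the other 7 members, to the mean levels of contractile, YAP target and mitosis genes, to macrophage markers and to the mitochondrial share was computed within each group. Of these 24 relations 0 passed by Pearson correlation (exact permutation of pairings, lowest adjusted p = 0.311, 3 unadjusted under 0.05) and 1 by Spearman correlation, with Slc41a1 within the blebbistatin libraries (exact permutation, adjusted p = 0.0274). Without TMM scaling that relation had an adjusted p of 0.0548 (Spearman, exact permutation), so nothing is read from it. The Cnnm4 values fall into separate clusters in both groups, and the coefficients of these 24 relations are not given.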

How the data were processed

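Raw counts per gene were deposited by the authors as a whole-number table of 15805 genes, in which each gene exceeds 1 CPM in at least 4 libraries. Per the submitters' processing notes, HTSeq 0.6.1p1, edgeR, SAMtools 1.3, TopHat2 2.1.0 and Bowtie2 2.2.6.0 were used with build GRCm38. No source states a strand setting for the counting. Of the gene IDs, 15665 matched GENCODE M21.

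The main test was edgeR 4.0.16 (R 4.3.3), with TMM scaling, filterByExpr (130 genes removed, 15675 tested), the robust quasi-likelihood test on group alone and Benjamini-Hochberg adjustment at 0.05. DESeq2 1.42.0 and limma voom 3.58.1, other scaling, covariates, a replicate block and leaving out libraries were alternatives. Measures of the libraries were compared by 2-sided exact permutation tests. CPM and RPKM were computed from the counts, and RPKM used merged exon length. The genes named are the 8 members, in each gene list described those called and then those of smallest p up to 4, the 5 genes most like Cnnm4, Cnnm1 and the markers. Contractile, YAP target and mitosis lists served only as mean levels in the relations of Cnnm4 and are not described gene by gene. The members and lists were chosen with earlier results of these data known.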

Additional observations from a re-analysis of the deposited data

Results flagged for a closer look

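The values of each gene in each group, 16 sets of 8 libraries, were searched on the log2 scale for a library far from the rest, by Dixon's test at the 95% level, which flags about 1 set in 20 by chance. Ptp4a3 in blebbistatin 8, at 5.62 CPM, was the lowest of its group, and its gap to the next library was 0.549 of the range. Ptp4a1 in control 6, at 102 CPM, was the lowest control, with a gap of 0.725 of the range.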

How the results depend on the processing

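Over 29 alternatives the log2 fold change of Cnnm4 was −1.54 to −1.20, and −1.54 to −1.25 with 1 library left out. It was −1.44 with the mitochondrial share and −1.20 with the cardiomyocyte markers as covariates. Those fits called 1 and 0 genes in all, Cnnm4 not among them. Cnnm4 was chosen on its difference, so these values are a description and not a test. DESeq2 called 424 genes, against 95 by edgeR, and of the members other than Cnnm4 it called Ptp4a3 alone (−0.74). Genes called were 283 with the macrophage covariate, 22 with the Y-linked covariate and 44 with the top 10 genes covariate. In the Y-linked fit too the log2 fold change of Cnnm4 was −1.20. Of the 3 Y-linked markers tested, 3 had a positive log2 fold change (median 1.27, against 0.04 for all genes). By edgeR 0 of the 3 were at an unadjusted p under 0.05. Whether the sex of the explants differed between the groups was not tested. With 1 library left out the genes called were 44 to 206. Of the members other than Cnnm4 only Ptp4a1 then passed, without control 6 (−0.38). Slc41a1 turned to 0.01 with the Y-linked covariate and 0.04 without blebbistatin 1 and 8, and Trpm7 to 0.00 without control 5 and 0.02 without control 7, within −0.09 to 0.02 with 1 library left out. Spearman correlation passed 1 relation of Cnnm4, Pearson 0. The cause of these shifts was not tested.

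Replicate numbers are shared by the groups, but same-numbered libraries correlated at 0.00394 to 0.279 and 2 of 8 correlated best with their own number, so the numbers were not taken as pairs. With the replicate block 177 genes were called, and Cnnm4 had −1.37.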
